A study of Homo sapiens with 24 samples.

Results

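Transcript levels of 10 genes of the matrix metalloproteinase (MMP) system were followed in human lung adenocarcinoma cells treated with Pirfenidone: the proteases MMP1, MMP2, MMP7, MMP9, MMP10, MMP13 and MMP14 and the inhibitors TIMP1, TIMP2 and TIMP3. The members were chosen by the gene name in the array files, and 10 of the 25992 named genes on the array carried such a name, each with 1 probe of 60 bases. The cell lines were A549 and H1975, both grown from human lung adenocarcinoma. Cells of each line received 0.75 mg/ml Pirfenidone, an anti-fibrotic drug, or the matching volume of its solvent PBS, and were harvested after 6 h or 24 h. The 8 groups of line, treatment and time held 3 samples each, which gave 24 samples on 24 one-color Agilent arrays. No further allele, agent or genetic change is given in the labels, and each line stands for 1 tumor grown as a pure culture in serum-containing medium without stroma. The labels do not say whether samples of a group came from separate cultures, so p-values measure the spread between these samples only, which may be technical.

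Matrix metalloproteinases are zinc-dependent enzymes that cut collagens, laminin, elastin and other proteins of the extracellular matrix, and they are made as inactive proenzymes. TIMPs, the tissue inhibitors of metalloproteinases, occupy the active site, and the balance between both sides is regulated in lung repair, fibrosis and tumor invasion. MMP1 and MMP13 are collagenases, MMP2 and MMP9 are gelatinases, MMP10 is a stromelysin, MMP7 is the small matrilysin of epithelial cells, and MMP14 is anchored in the membrane, where it activates the MMP2 proenzyme with the help of TIMP2.

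The probe of MMP7, the gene with the widest difference between the lines, is shown because it reads the coding part of the transcript. It lies on the minus strand of hg19 at chr11:102394029-102394088, and 1 of its 3 reading frames is free of stop codons. The capitals mark the single histidine codon of that frame, codon 5 of the probe, which in the matrilysin protein belongs to the zinc-binding site.
MMP7 probe: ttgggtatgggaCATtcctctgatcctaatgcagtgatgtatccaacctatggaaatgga
The other probes, each of 60 bases, lie on hg19 on chromosome 11 (MMP1, MMP10 and MMP13), 14 (MMP14), 16 (MMP2), 17 (TIMP2), 20 (MMP9), 22 (TIMP3) and X (TIMP1). No annotation of that build was used here, so their exons are not given.

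The RefSeq promoter table (GRCh38.p14) held 5 of the 10 genes. The 120 bases before their start sites are shown because genes with far higher levels in A549 (MMP7, TIMP3) or in H1975 (MMP14) can be set beside TIMP1, whose lines differed little, and MMP10, a neighbor of MMP7. Capitals mark the AP-1 motif TGAGTCA, the TATA motif TATAAA and the GC box GGGCGG, searched on both strands. The matches do not overlap each other.
MMP7 (minus strand, chr11:102530748-102530867): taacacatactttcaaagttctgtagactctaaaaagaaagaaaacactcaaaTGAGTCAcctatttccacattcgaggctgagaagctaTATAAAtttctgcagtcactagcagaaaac
MMP10 (minus strand, chr11:102780629-102780748): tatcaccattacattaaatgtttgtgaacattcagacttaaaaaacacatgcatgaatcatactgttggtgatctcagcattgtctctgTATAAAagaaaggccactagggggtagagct
MMP14 (plus strand, chr14:22836465-22836584): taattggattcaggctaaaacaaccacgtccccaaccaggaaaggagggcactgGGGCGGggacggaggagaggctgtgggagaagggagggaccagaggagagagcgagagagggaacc
TIMP1 (plus strand, chrX:47582316-47582435): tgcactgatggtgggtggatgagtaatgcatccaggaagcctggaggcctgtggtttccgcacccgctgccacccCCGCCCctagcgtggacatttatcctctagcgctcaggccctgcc
TIMP3 (plus strand, chr22:32801585-32801704): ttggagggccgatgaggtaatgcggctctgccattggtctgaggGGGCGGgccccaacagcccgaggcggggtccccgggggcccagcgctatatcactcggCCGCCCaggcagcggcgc
MMP7 was the only one of these 5 with the AP-1 motif, which began 67 bases before the start and was held by 2.34% of the 35116 promoter windows of that length. A TATA motif began 30 bases before the start of MMP7 and 31 bases before that of MMP10, and 5.63% of all windows held one. MMP14 and TIMP1 held 1 GC box each and TIMP3 held 2, a motif found in 34% of all windows. The G and C share was 35% in MMP7, 36.7% in MMP10, 60% in MMP14, 62.5% in TIMP1 and 72.5% in TIMP3, with a median of 60% over all windows. These matches describe the letters of the windows only.

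Levels are on a log2 scale relative to the 75th percentile of the array, so a level of 0 is as bright as that percentile and a difference of 1 is a change of 2-fold. Levels of different probes are not compared, since probes differ in how well they bind. Of the probes of an array, between 62.7% and 69.5% were well above background and none was saturated. All 6 epithelial markers (EPCAM, CDH1, KRT7, KRT8, KRT18 and KRT19) were well above background on every array. The CDKN2A probe for the p16 transcript, a gene A549 is known to have lost, was well above background on 0 of 12 A549 and on 12 of 12 H1975 arrays. A second CDKN2A probe, for another transcript, was well above background on all 12 arrays of either line, at -2.33 to -0.88 in A549 and 2.37 to 3.07 in H1975, so the loss showed in 1 of the 2 probes. The files name 4 dates, called runs here, and PBS and Pirfenidone samples of a line and time were spread evenly over 3 of them. The A549 pair of run 1 at 24 h (replicate 3) ran against the other A549 pairs in earlier results of these data, and in H1975 the run 1 arrays stand apart from the others, so values within runs are given. The place of an array on its slide followed treatment and time, and both cannot be told apart. A549 arrays lay on slides 2, 5 and 6 and H1975 arrays on slides 1, 3, 4 and 7, so line and slide cannot be told apart, also within a run. In run 3 at 24 h, the H1975 PBS array lay on slide 1 (scan day 3) and the Pirfenidone array on slide 3 (scan day 2). Differences within run 3 that use this PBS array thus also compare slides.

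MMP9, TIMP1 and TIMP2 were well above background on all 24 arrays. MMP7 and TIMP3 were so on the 12 A549 arrays and on no H1975 array, and MMP13 on the 12 H1975 arrays and on no A549 array. MMP1 and MMP14 were well above background on 12 H1975 and 6 A549 arrays each. MMP2 was so on 10 A549 arrays and no H1975 array, and MMP10 on 2 A549 and 7 H1975 arrays. MMP10 was not well above background on all 3 arrays of any group and was left out of the tests. The other 9 were tested among 23827 probes. MMP2, MMP7, MMP13, MMP14 and TIMP3 entered through 1 line only, so that the filter favored a line difference for these 5.

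**Figure D1:**
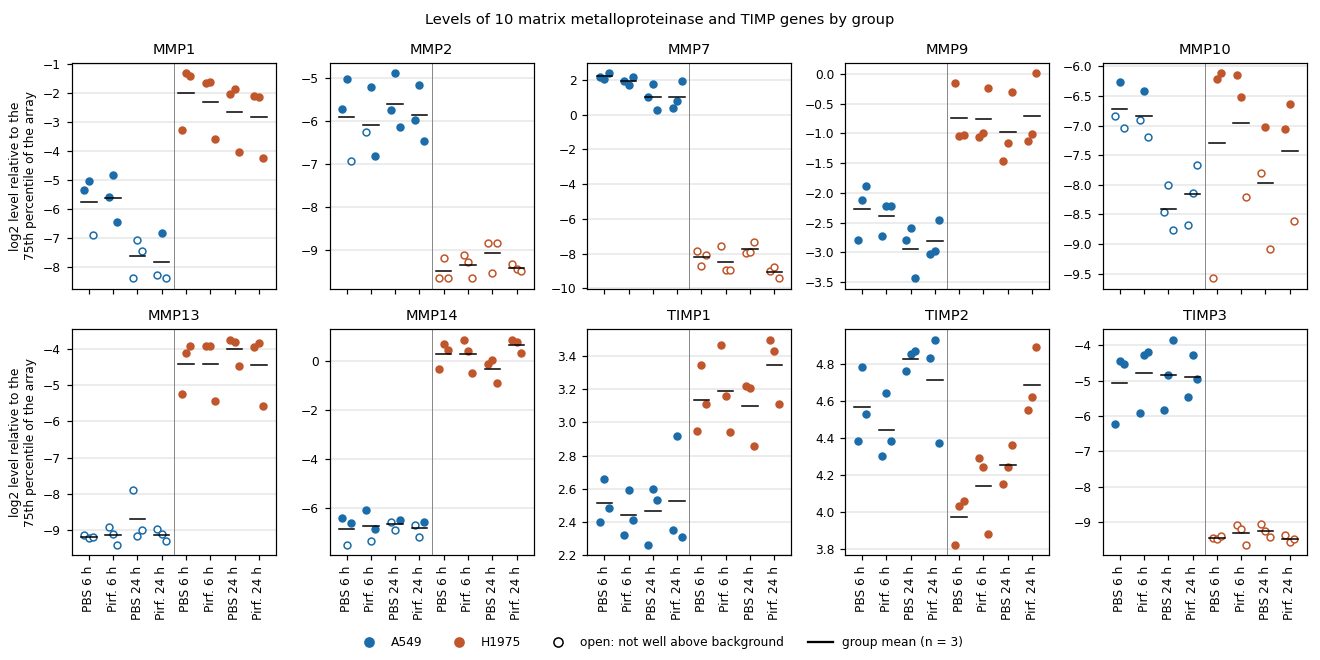
Level of each gene (log2 relative to the 75th percentile of the array, vertical axis, own scale per gene) in the 8 groups of line, treatment and time, with 1 point per array and the group mean as a bar. Filled points were well above background; MMP7 lay between 0.26 and 2.37 on A549 arrays and between -9.43 and -7.31, all open, on H1975 arrays.

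The first comparison asked how the untreated state of the system differed between the lines. In PBS, H1975 cells had more MMP1, MMP9, MMP13 and MMP14 RNA than A549 cells and less MMP2, MMP7 and TIMP3 RNA, at both times. With limma and Benjamini-Hochberg adjustment over all probes, 7 of the 9 tested genes passed an adjusted p of 0.05 and a 2-fold limit at 6 h and 7 at 24 h. Over the whole array the share was 32.4% of probes after 6 h and 32.9% after 24 h. Since 5 of the 7 entered the tests through the line where they were bright, their count is not read against this share. Of the 4 genes that entered through both lines, MMP1 and MMP9 passed, and TIMP1 and TIMP2 did not reach the 2-fold limit. The median difference was 0.63 over the 9 genes at either time, against 0.06 at 6 h and 0.08 at 24 h over all probes.

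MMP7, the matrilysin, had PBS levels of 2.15, 2.07 and 2.37 in A549 after 6 h and of 0.98, 1.75 and 0.26 at 24 h. In H1975 its PBS levels were -7.87, -8.69 and -8.10 after 6 h and -7.96, -7.89 and -7.31 at 24 h. The bright A549 arrays and the dark H1975 arrays never came close to each other. Since the probe was not well above background on any H1975 array, the difference is given as a bound on the main values. On these values, MMP7 RNA was at least 777-fold lower in H1975 at 6 h (limma, adjusted p = 5.91e-14) and at least 299-fold lower at 24 h (adjusted p = 9.89e-13). Over the alternative settings named below, the smallest MMP7 difference was -7.62 at 6 h and -6.28 at 24 h. Here and below, such a bound sets the mean of the brighter group against the lowest signal called well above background on each array of the dimmer group, or the probe's own signal where that was higher. It holds for the main values and the group means only, and other processing or a single run can give a smaller difference. The adjusted p given with a bound tests the measured log2 difference, not the bound. For genes that entered the tests through 1 line only, the filter favored a line difference, so its p is not support. Within the runs that held both lines, the measured difference of MMP7 in PBS was -10.23 in run 1 and -10.76 in run 3 at 6 h, and -7.57 and -9.72 at 24 h.

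MMP14, the membrane-anchored activator of MMP2, showed the reverse order. Its H1975 levels in PBS were -0.31, 0.70 and 0.47 after 6 h and -0.11, 0.04 and -0.88 at 24 h. Its A549 levels were -6.43, -7.53 and -6.63 after 6 h and -6.59, -6.93 and -6.52 at 24 h. All H1975 arrays lay above all A549 arrays, and only 2 of the 3 A549 arrays at 6 h and 1 of 3 at 24 h were well above background. The difference was 7.15 ± 0.38 (SE, n = 3 per group, 142-fold, limma adjusted p = 6.91e-12) at 6 h and 6.36 ± 0.38 (82.3-fold; adjusted p = 4.09e-11) at 24 h.

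The collagenases MMP1 and MMP13 were also brighter in H1975. MMP13 had PBS levels of -5.24, -4.11 and -3.92 after 6 h and -3.75, -3.82 and -4.48 at 24 h in H1975, against levels between -9.21 and -7.90 in A549 that were not well above background. This put MMP13 at least 5.45-fold higher in H1975 at 6 h (limma adjusted p = 5.1e-08) and at least 6.55-fold higher at 24 h (adjusted p = 6.33e-08). MMP1 had PBS levels of -3.28, -1.32 and -1.42 after 6 h and -2.03, -1.86 and -4.02 at 24 h in H1975. In A549 they were -5.34, -5.03 and -6.89 after 6 h and -8.37, -7.05 and -7.44 at 24 h. The lines did not overlap, and the spread of MMP1 within each group was wide. MMP1 was higher by 3.74 ± 0.78 (SE, 13.4-fold; limma adjusted p = 0.000383) in H1975 at 6 h, with 2 of 3 A549 arrays well above background, and at least 17-fold higher at 24 h (adjusted p = 1.79e-05). The 10 MMP1 spots of an array had a median SD of 0.68 (log2) on A549 and 0.07 on H1975 arrays.

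MMP9, a gelatinase, was measured in both lines and was higher in H1975 by 1.53 ± 0.37 (SE, 2.88-fold; limma adjusted p = 0.00151) at 6 h and 1.96 ± 0.37 (3.90-fold; adjusted p = 0.000143) at 24 h. The size depended on the run: at 24 h the difference was 3.14 in run 1 and 1.13 in run 3, and at 6 h 1.74 and 1.08. MMP2, the other gelatinase, went the other way and was at least 2.84-fold lower in H1975 at 6 h (limma adjusted p = 1.28e-06) and at least 3.18-fold lower at 24 h (adjusted p = 2e-06). Its A549 levels in PBS were -5.73, -5.03 and -6.94 after 6 h and -5.76, -4.90 and -6.14 at 24 h, all above the H1975 levels, which lay between -9.65 and -8.82 over the 12 arrays. With normexp background correction the MMP2 difference was -1.13 (adjusted p = 0.168) and -1.27 (adjusted p = 0.116) and did not pass. Within runs 1 and 3, at both times, the differences of 4 genes ran the same way as over all runs: from -4.15 to -2.68 for MMP2, from 3.42 to 5.02 for MMP1, from 3.93 to 5.42 for MMP13 and from 5.64 to 8.23 for MMP14.

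Of the inhibitors, TIMP3, which binds to the matrix itself, differed most between the lines. Its A549 levels in PBS were -6.23, -4.43 and -4.54 after 6 h and -5.84, -4.85 and -3.84 at 24 h, while H1975 levels lay between -9.47 and -9.06, not well above background. TIMP3 was thus at least 5.06-fold lower in H1975 at 6 h (limma adjusted p = 4.38e-07) and at least 5.37-fold lower at 24 h (adjusted p = 4e-07), with differences from -5.59 to -4.21 within runs 1 and 3. TIMP1, a broad inhibitor of soluble MMPs, was higher in H1975 by 0.63 ± 0.18 (SE, 1.55-fold) at both times (adjusted p = 0.00551 and 0.00526). TIMP2, the inhibitor that also takes part in MMP2 activation, was lower by 0.59 ± 0.15 (1.51-fold; adjusted p = 0.0028) and by 0.58 ± 0.15 (1.49-fold; adjusted p = 0.00349) in H1975. Both TIMP1 and TIMP2 groups did not overlap, but the changes stayed under the 2-fold limit. The share of all probes without overlap between the lines is not given here. The lack of overlap of these and the other members between the lines is thus a description only.

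Normexp background correction, whose offset of 50 lifts dim signals, made the line differences of MMP1, MMP2, MMP7, MMP13, MMP14 and TIMP3 smaller and kept their direction. MMP14 then differed by 5.40 and 4.67, MMP13 by 1.63 and 1.61 and TIMP3 by -1.71 and -1.69 at 6 h and 24 h, and MMP1 by 2.58 and 2.52. Markers of other cell types also differed between the lines: of 6 fibroblast markers, 2 were well above background on all A549 and 3 on all H1975 arrays, COL3A1 and DCN were so on none, and their summed signal ranged from 0.243 to 0.966 times the 75th percentile in A549 and from 2.53 to 8.26 times in H1975. Of 6 leukocyte markers, 4 passed that mark on every A549 array and 4 on every H1975 array, and their summed signal ranged from 1.13 to 2.2 times the percentile in A549 and from 5.08 to 6.65 times in H1975. Of 4 endothelial markers, 1 was so on all A549 and 3 on all H1975 arrays, KDR was so on none, and the sum ranged from 0.0214 to 0.0307 and from 0.0639 to 0.106 times. The part of this in the MMP and TIMP differences was not tested.

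MMP1, MMP7, MMP10 and MMP13 belong to a cluster of 9 MMP genes on chromosome 11, which were looked at together after their values had been seen. In the order of the RefSeq gene table they are MMP7, MMP20, MMP27, MMP8, MMP10, MMP1, MMP3, MMP12 and MMP13, with no other protein-coding gene in between. MMP7, at one end, was well above background in A549 only, and MMP13, at the other end, in H1975 only. MMP3, a stromelysin between MMP1 and MMP12, had a median level of -4.46 in H1975, well above background on 11 of 12 arrays, and was at least 9.69-fold higher there than in A549 at 6 h (limma adjusted p = 4.4e-05) and at least 4.93-fold higher at 24 h (adjusted p = 0.000124). MMP3 was well above background on 0 A549 arrays. It thus entered the tests through H1975 only, and its p-values are not support of a line difference. MMP20, MMP27, MMP8 and MMP12 were not well above background on any of the 24 arrays. Neighbors in this cluster thus had measured RNA in different lines, in both lines or in neither.

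**Figure D2:**
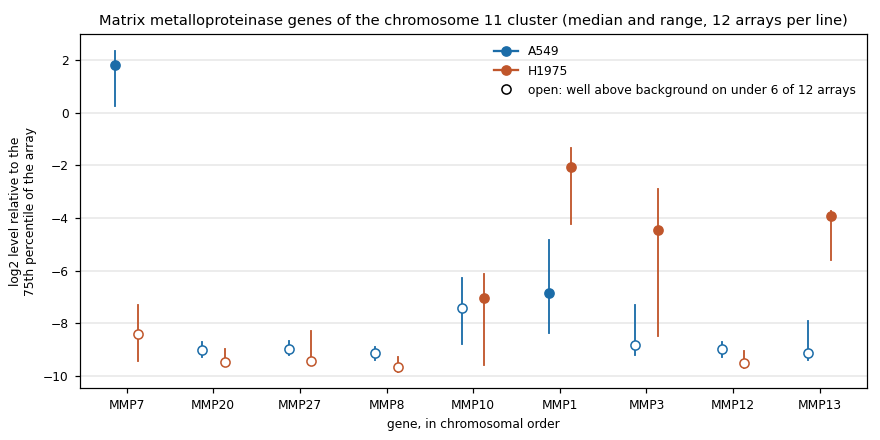
Median level (point) and range (line) over the 12 arrays of each line for the 9 MMP genes of the chromosome 11 cluster in chromosomal order; the vertical axis is the log2 level relative to the 75th percentile of the array, and heights are to be compared between lines within a gene. MMP7 is high in A549 alone, and MMP1, MMP3 and MMP13 are higher in H1975.

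The main comparison asked whether Pirfenidone changed these genes. In none of the 4 comparisons with PBS did any of the 9 tested genes pass with limma. Few probes of the whole array passed either: for A549 the share was 0.176% (6 h) and 0.0126% (24 h), and for H1975 it was 0.491% (6 h) and 1.89% (24 h). The unadjusted p was below 0.05 for 0 of 9 genes in each of the first 3 comparisons and for 3 of 9 in H1975 at 24 h. The share of all probes under this unadjusted limit is not given here, so no result is read from these counts. Below, the limit only selects which genes are described. The median change over the 9 genes was -0.07, -0.12, 0 and -0.18 in the same order, against -0.01, -0.02, 0.05 and 0.02 over all probes. For A549 the changes of the 9 genes lay between -0.27 and 0.27 (6 h) and between -0.44 and 0.12 (24 h), and for H1975 between -0.28 and 0.17 (6 h) and between -1.34 and 0.99 (24 h).

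How much the data bound a change differed between genes. The 95% confidence intervals of TIMP1 and TIMP2 lay within a 2-fold change in all 4 comparisons, those of MMP9 and MMP14 in 3 of 4. In A549, MMP14 was well above background on 2 of 3 arrays per group at 6 h and 1 of 3 at 24 h. Its A549 intervals thus describe signals close to background and do not bound a change of RNA. MMP1 had the widest intervals, from -1.48 to 1.77 in A549 at 6 h and from -1.91 to 1.34 in H1975 at 6 h. This fit, which did not include the run, thus left a 2-fold change of MMP1 either way undetected. Within single runs, the Pirfenidone change of MMP1 in H1975 ranged from -0.34 to -0.21 (6 h) and from -0.27 to -0.06 (24 h). In A549 its range was -0.23 to 0.45 (6 h) and -0.94 to 0.22 (24 h), partly from signals near background. Each of these within-run values compares single arrays, so no interval is given for them.

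**Figure D3:**
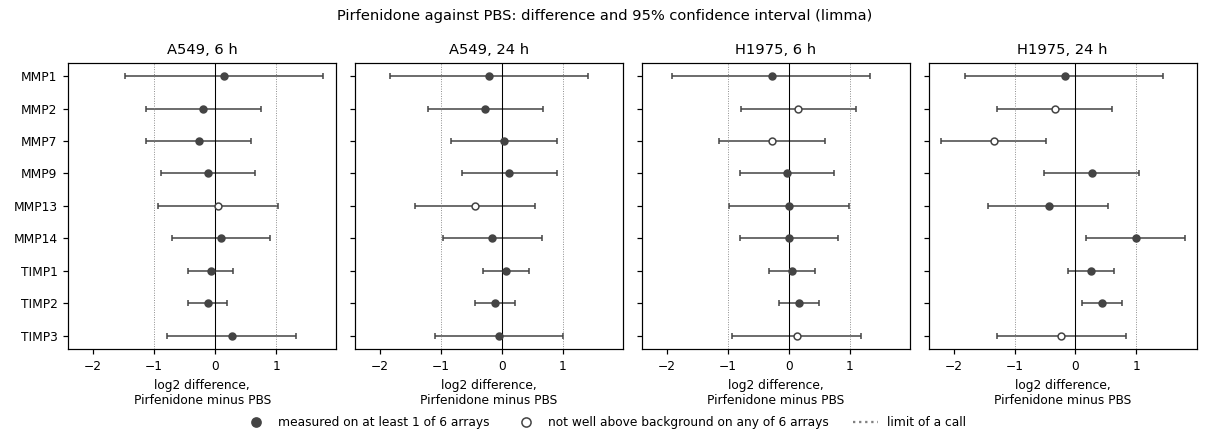
Difference between Pirfenidone and PBS (horizontal axis, log2) of the 9 tested genes in the 4 comparisons, with the 95% confidence interval from limma (n = 3 arrays per group); open points were not well above background on any of the 6 arrays. In H1975 at 24 h the intervals of MMP7, MMP14 and TIMP2 leave out 0, and none of the 3 passed after adjustment.

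In H1975 cells at 24 h, MMP14 and TIMP2 were the measured genes with an unadjusted p below 0.05. MMP14 levels were -0.11, 0.04 and -0.88 with PBS and 0.87, 0.78 and 0.35 with Pirfenidone. All 3 treated arrays were above all 3 control arrays, and the lowest array of each group came from run 1. The difference was 0.99 ± 0.38 (SE, n = 3; 1.98-fold; limma adjusted p = 0.135), and within runs 1, 3 and 4 it was 1.23, 0.98 and 0.74. TIMP2 levels were 4.15, 4.24 and 4.36 with PBS and 4.55, 4.62 and 4.89 with Pirfenidone, again without overlap. Its difference was 0.44 ± 0.15 (1.35-fold; adjusted p = 0.098), and 0.53, 0.40 and 0.38 within the same runs. The TIMP1 difference was 0.25, 0.28 and 0.22 within these runs, with a limma adjusted p of 0.46 and overlapping groups.

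MMP7 levels in H1975 at 24 h were -7.96, -7.89 and -7.31 with PBS and -8.99, -8.78 and -9.43 with Pirfenidone. The groups did not overlap, but none of these 6 arrays was well above background, so no fold is given. The difference of -1.34 had an adjusted p of 0.0588 and was -0.16 with normexp. Groups of 3 without overlap were found for 3 of the 9 genes, MMP7, MMP14 and TIMP2, and for 31.9% of all probes in this comparison, about the same share. MMP14 and TIMP2 came under an adjusted p of 0.05 with the slide as a random block, at differences of 0.91 (adjusted p = 0.0188) and 0.41 (adjusted p = 0.0487). They also did when only these 6 arrays were fitted with the run as a block (0.0249 and 0.0333), a fit added after the data had been seen. Both genes stayed short of the 2-fold limit in either fit.

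In A549 cells at 24 h, MMP7 differed between the runs in direction. Its levels were 0.98, 1.75 and 0.26 with PBS and 0.38, 0.79 and 1.91 with Pirfenidone for replicates 1, 2 and 3. The change was -0.60 in run 2 and -0.96 in run 3, and 1.66 in run 1, the pair named above. The mean difference of 0.03 (limma adjusted p = 1) became -0.78 without that pair (adjusted p = 0.652). The other 8 tested genes had differences between -0.51 and 0.48 without the pair, at adjusted p-values from 0.901. After 6 h the MMP7 changes in A549 were -0.19, -0.25 and -0.37 within runs 1, 2 and 3 (adjusted p = 1).

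The Pirfenidone change was then compared between lines and between times. No gene passed in any of these 4 comparisons, and few probes did: 0.0336% and 0.193% of the array differed in response between the lines after 6 h and after 24 h, and 0.0294% (A549) and 0.0042% (H1975) between the times. At 24 h the change of TIMP2 was greater in H1975 than in A549 by 0.55 ± 0.22 (SE, limma adjusted p = 0.294) and that of MMP14 by 1.14 ± 0.54 (adjusted p = 0.41), so no difference of response between the lines was shown. Without the A549 pair of run 1 they were 0.36 and 1.19.

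Time in culture was examined in the PBS samples. No gene passed, against 0.109% of all probes in A549 and 0.315% in H1975. In A549 the changes from 6 h to 24 h with an unadjusted p below 0.05 were those of MMP1 and MMP7. MMP1 had a measured difference of -1.87 (limma adjusted p = 0.535), which was -0.47 under normexp. No fold is given for MMP1, since its 24 h signals were not well above background. MMP7 differed by -1.20 ± 0.41 (SE, 2.30-fold; limma adjusted p = 0.413). The MMP1 arrays of both times are given above and did not overlap, with 2 of 3 well above background at 6 h and 0 of 3 at 24 h. Within runs 1, 2 and 3 the MMP1 change was -0.56, -3.03 and -2.02, and it passed when the run was a block in the fit (adjusted p = 0.0176) or the slide a random block (adjusted p = 0.0413). The MMP7 change was -2.11, -1.17 and -0.31 within these runs, and -0.83 without both A549 24 h arrays of replicate 3. MMP10, which was not tested, had levels of -6.84, -6.27 and -7.05 after 6 h and of -8.46, -8.01 and -8.77 at 24 h, with 1 of these 6 arrays well above background. Of the 9 tested genes, MMP1 and MMP7 had groups without overlap between the times in A549, as had 15% of all probes.

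Apart from line, treatment and time, the run left a mark on several of these genes in H1975. On the 4 arrays of run 1, MMP1 lay between -4.24 and -3.28 and MMP13 between -5.58 and -4.48, below the ranges of the other 8 arrays, from -2.13 to -1.32 and from -4.11 to -3.75. MMP10 was at or below -8.20 in run 1, not well above background, and between -7.80 and -6.12 on the others. MMP9 went the other way and lay between -0.30 and 0.01 in run 1, above the other arrays at -1.46 to -0.99. TIMP1 was lower in run 1, with both ranges ending at 3.11 after rounding. Run 1 thus stood fully apart for 4 of the 9 tested genes (MMP1, MMP9, MMP13 and TIMP1) and for 16.3% of all tested probes. The run 1 arrays held 1 array of each H1975 group, and what else differed between the runs is not given in the labels.

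**Figure D4:**
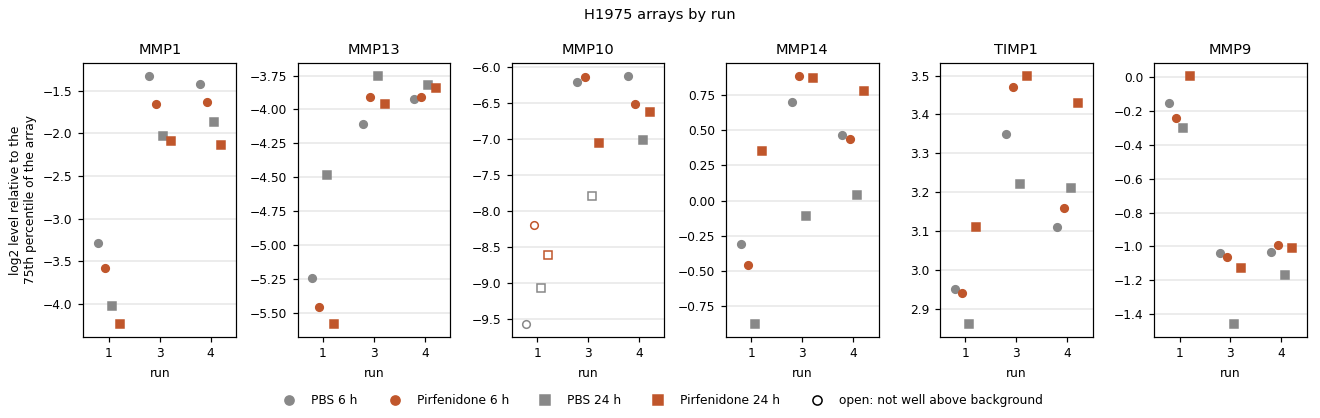
Level of 6 genes on the 12 H1975 arrays (log2 relative to the 75th percentile of the array, vertical axis, own scale per gene) by run, with symbols for treatment and time and open symbols where the probe was not well above background. In run 1 the points of MMP1, MMP10 and MMP13 lie below and those of MMP9 above all points of the other runs; MMP14 overlaps.

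In A549, run 1 stood fully apart for 0 of the 9 tested genes and 5.69% of all tested probes, run 2 for 1 gene and 6.04% of probes, and run 3 for 3 genes and 6.32% of probes. The gene of run 2 was TIMP3, which lay between -6.23 and -5.47 on the 4 arrays of run 2 and between -4.94 and -3.84 on the other 8. The genes of run 3 were MMP2, which was highest there at -5.22 to -4.90, TIMP1, also highest at 2.59 to 2.92 against 2.26 to 2.53 on the other arrays, and MMP14, lowest at -7.53 to -6.93.

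Genes whose levels moved most like a member over the 24 arrays, after the mean of each line was subtracted, were FRMD8 (Pearson r = 0.87), LMCD1 (0.85) and ECM1 (0.84) for MMP1 and KLC3, HARS2 (both 0.88) and ELF4 (0.86) for MMP9. For MMP13 they were CEP250, PCDHGA3 (both 0.87) and KCNK12 (0.86), and for MMP14 FLJ42627, ITGB5 (both 0.83) and ZNF133 (0.82). For MMP7 they were HMGN2 (0.85), HDGF and CPLX1 (both 0.80). For TIMP2 they were FKBP9, IDNK and SOX4 (0.90 each), and for TIMP3 TBC1D25 (0.84), FAM50A and PRKAG1 (both 0.81). These are the top 3 of at least 13254 genes well above background on all arrays, the arrays share their runs, and the values are a description. Some members were well above background on fewer arrays: MMP7, MMP13 and TIMP3 on 12, and MMP1 and MMP14 on 18. Their values near background on the other arrays were part of r.

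Lists of related genes were read beside the members. Of 17 other MMP and TIMP genes, 10 were tested and 0 passed with Pirfenidone in any of the 4 comparisons. Between the lines in PBS, MMP3, MMP11 and MMP23B were higher and MMP24 was lower in H1975 at both times. Of all probes, 32.4% (6 h) and 32.9% (24 h) passed in either direction. MMP3 and MMP11 entered the tests through H1975 only, so no result is read from this count. MMP11, stromelysin-3, was at least 12.6-fold higher at 6 h and at least 16-fold higher at 24 h. The median difference of these 10 was 0.40 at 6 h and 0.08 at 24 h, against 0.06 and 0.08 over all probes.

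Of 22 activators, inhibitors and partners of MMPs, 19 were tested. With Pirfenidone, SERPINB2, which inhibits the plasminogen activator urokinase, fell in H1975 at 6 h by 1.30 (limma adjusted p = 0.0316), and KLK6, a secreted serine protease, fell in H1975 at 24 h by 1.60 (adjusted p = 0.0111). In the A549 comparisons 0 of 19 passed. The median change of the 19 in H1975 was 0.12 after 6 h and 0.30 after 24 h. Both calls depended on single arrays. SERPINB2 missed the threshold when any 1 of 5 of its 6 arrays was left out, that is, PBS replicate 2 or 3 or any Pirfenidone replicate (log2 differences from -1.41 to -1.10, adjusted p from 0.0501 to 0.133), and KLK6 without Pirfenidone replicate 3 (-1.31, adjusted p = 0.0865). From 6 h to 24 h in PBS, SERPINB2 fell by 1.59 in H1975 (adjusted p = 0.015) and THBS2, a matricellular protein with 1 of these 6 arrays well above background, rose by 1.5 (adjusted p = 0.00106). Under normexp neither time call was kept, with a SERPINB2 change of -1.36 (adjusted p = 0.143) and a THBS2 change of 0.22 (adjusted p = 1). In a fit of only the arrays compared they were lost too (SERPINB2 adjusted p = 0.164, THBS2 0.168), and the SERPINB2 call was also lost under Holm adjustment (adjusted p = 0.717) and without PBS 6 h replicate 2 or 3 or PBS 24 h replicate 3 (adjusted p = 0.0644, 0.0827 and 0.0692). Between the lines in PBS, 6 were higher and 6 lower in H1975 at 6 h, and 7 and 6 at 24 h, beside 32.4% and 32.9% of all probes in either direction. Some of them, such as SERPINE2 and SERPINB2, were well above background in 1 line only, so no result is read from these counts. At 24 h, KLK6 was higher by 6.06 and SERPINB2 at least 8.11-fold higher in H1975, and the serine protease inhibitor SERPINE2 was at least 171-fold and the proprotein convertase PCSK6 at least 16.3-fold lower. PLAT, the tissue plasminogen activator, was higher in H1975 by 2.88 at 24 h, and TFPI2, a serine protease inhibitor, differed by -3.09.

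Of 15 ADAM and ADAMTS proteases, relatives of the MMPs, 11 were tested. ADAM8 rose with Pirfenidone in H1975 at 24 h by 2.17 ± 0.52 (SE, 4.49-fold; limma adjusted p = 0.0208) and was the only gene of this list to pass in a Pirfenidone comparison. It missed the threshold without PBS replicate 1 or 3 or any 1 Pirfenidone replicate (ADAM8 differences from 1.89 to 2.39, adjusted p from 0.0506 to 0.0857). Between the lines at 24 h, 3 were higher and 4 lower in H1975, beside the same 32.9% of all probes, with ADAMTS6 at least 8.22-fold higher and ADAM19 differing by -2.92. ADAMTS6 was well above background on no A549 array, so no result is read from this count.

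All 13 genes of a list of AP-1, ETS and RUNX2 transcription factors, known to act on MMP promoters, were tested, and 0 passed with Pirfenidone in any comparison. Between the lines, RUNX2, ETS1 and FOSL1 were higher and ELF3 and ETV4 lower in H1975 at both times. Of all probes, 32.4% (6 h) and 32.9% (24 h) passed in either direction, so no result is read from their number. RUNX2, known as an activator of MMP13, was higher by 5.16 at 24 h (limma adjusted p = 2.03e-09), FOSL1 by 2.69 and ETS1 by 2.19. The RUNX2 probe was well above background on 6 of the 12 A549 arrays, so its difference rests partly on signals near background. The ETS1 call at 6 h was lost under normexp, at a difference of 0.96. Whether these factors act on the members in these cells was not tested. ELF3, an epithelial ETS factor, differed by -2.58.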

How the data were processed

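Scanner files of 24 one-color arrays hold spot intensity values that the authors obtained with Agilent Feature Extraction version 11.5.1.1, which subtracts background and flags outliers. A log2 table deposited by the authors, centered per probe, served as an alternative. Its column medians lay between -0.163 and 0.156, its scaling was not given in the sources used here, and its differences between arrays correlated with those of the scanner values (r = 0.9995 across probes).

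For the main values, the 75th percentile over 43118 non-control spots was subtracted from the log2 processed signal of each array. Outlier spots were dropped, replicate spots were averaged, and a probe was called well above background where 0.5 or more of its spots were flagged so. Tests used limma version 3.58.1 in R version 4.3.3 on 8 group means with 16 residual degrees of freedom, for 23827 of 34127 probes that met this in a whole group of 3. Calls required an adjusted p (Benjamini-Hochberg) no higher than 0.05 and a log2 difference of at least 1. The permutation adjustment in the study's methods was not used, since 3 arrays against 3 allow no p below 0.1. On simulated arrays, the H1975 comparison after 24 h recovered 83% of 100 probes changed by 1.5 and 87% of 100 changed by 2 on the log2 scale, with 4 false calls among 23827 probes. The simulated noise was independent between arrays, without effects of run or slide. Changes smaller than 1.5 were not simulated, so these shares do not hold for them.

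Groups and replicate numbers came from the sample labels. Members and gene lists were chosen with earlier results of these data known, so no p was adjusted over a list alone. All 10 members are named, and of the other lists at most the 3 largest changes in each direction that passed in a comparison. The genes MMP11, FOSL1, ETS1, ELF3, ETV4, MMP23B, MMP24, ADAMTS6, ADAM19 and the chromosome 11 neighbors were chosen after their values were seen. A list gene is represented by its brightest probe. Same-numbered PBS and Pirfenidone samples did not deviate together throughout. For A549, r ran from 0.584 to 0.698 (6 h) and from -0.102 to 0.392 (24 h), and for H1975 from -0.676 to 0.43 (6 h) and from 0.458 to 0.718 (24 h). Paired by run, H1975 at 6 h had r from 0.5 to 0.824, and in the other comparisons run and number paired the same samples. Alternatives were the authors' values, quantile normalization, normexp with an offset of 50, other filters on dim probes, the replicate number, run or slide as a block, fits of the compared arrays alone, Holm adjustment, no fold limit and each array left out. The fit of the 6 compared arrays with the run as a block was added after seeing the data. The number of arrays limits the precision of every value. The genes most like TIMP1 are not reported here.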

Additional observations from a re-analysis of the deposited data

How the results depend on the processing

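No direction of a member that passed was reversed by any alternative. The 7 of 9 genes that differed between the lines stayed at 7 when any array was left out; with probes well above background on all 24 arrays only, 3 members could be tested and 1 (MMP9) passed at 6 h and 1 at 24 h. MMP1 and MMP9 missed the threshold under Holm adjustment and MMP2 under normexp. In H1975 at 24 h, 0 genes passed with Pirfenidone in the reported fit, and 1, MMP7 at levels not well above background, passed with the slide as a random block (adjusted p = 0.0271), with only the 6 compared arrays and the run as a block (adjusted p = 0.0404), without both A549 24 h arrays of replicate 3 (adjusted p = 0.016) and in 4 of the fits that left out an array, where the count ran from 0 to 1: without A549 PBS 24 h replicate 2 or 3, A549 Pirfenidone 24 h replicate 3 or H1975 Pirfenidone 6 h replicate 1. From 6 h to 24 h in A549, 0 genes passed, and 1, MMP1, with the run as a block and 1 with the slide as a random block. With the replicate number as a block, no call on a member changed; the adjusted p of MMP14 in H1975 at 24 h was 0.12 and that of TIMP2 0.0804. With quantile normalization the latter was 0.0423, at a log2 difference of 0.50 under the fold limit. Of the related genes, SERPINB2 at 6 h and KLK6 and ADAM8 at 24 h lost their Pirfenidone calls under Holm adjustment, SERPINB2 and KLK6 also with only the compared arrays, SERPINB2 under normexp, and each in some fits that left out an array of its own comparison. The line difference of THBS2 at 24 h, not named above, turned to -0.03 under normexp. Causes were not tested. Signals near background limit MMP2, MMP10 and TIMP3, and MMP1, MMP7, MMP13 and MMP14 in the line where they were dim.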
